A study of Mus musculus with 34 samples.

Results

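The genes described here are 129 of the 21887 protein-coding genes of mouse: pore-forming and auxiliary subunits of voltage-gated calcium and sodium channels and of potassium channels. They were chosen by symbol, as genes whose names start with Kcn followed by a family letter and number, with Cacna, Cacnb or Cacng, or with Scn, a number and a or b. Of 133 symbols of that form 4 were set aside (Kcnj11, Cacna1c, Cacna1d and Scn3b), so the pore of the ATP-sensitive channel and the main L-type calcium channels of the β cell are not among them. The binding data are from chromatin immunoprecipitation with sequencing in Beta-TC6, a mouse insulin-secreting β-cell line, all of it synchronised by 1 h with 10 µM forskolin. Antibodies to p65, the activating subunit of NF-κB, and to PDX1, a homeodomain factor of β cells, were used in Bmal1-/- cells with IL1B, Bmal1-/- cells without it (Control), wild-type (WT) cells with IL1B and WT Control cells, with 3 samples per group. An antibody to SIN3A, a corepressor scaffold, was used in WT cells given Pdx1 siRNA and in WT cells given control siRNA, with 2 samples per group. Bmal1 encodes an activator of the circadian clock and IL1B is the inflammatory cytokine IL-1β, whose dose and duration the labels leave out. The labels do not say whether the Bmal1-/- line is 1 clone, and all groups share the 1 cell line and the forskolin pulse.

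In β cells, glucose metabolism closes ATP-sensitive potassium channels. The membrane then depolarises, voltage-gated sodium and calcium channels open and carry the action potential, and the entering calcium triggers insulin release. Voltage-gated and calcium-activated potassium channels repolarise the membrane and end each spike, while auxiliary subunits set how many pores reach the membrane and how they gate.

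Each group has 1 deposited peak list and no value per replicate, so the lists were described and no test between conditions was possible. The 10 lists held 173 to 40028 peaks and came from 31.0 to 63.9 M tags each, fewest for SIN3A. All 8 β-cell marker genes checked, Ins1, Ins2, Pdx1, Nkx6-1, Mafa, Slc30a8, Slc2a2 and Ucn3, had a PDX1 peak in both WT lists. The lists do not measure expression, so a peak beside a channel gene does not show that the cells make the channel. The 3 PDX1 samples with IL1B of each genotype carry p65 in their antibody label although their titles name PDX1. The titles were followed, and the values that bear on this are given with the PDX1 results.

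A few promoters show what lies under the peaks. Sequences are from RefSeq on GRCm38.p6, the assembly of mm10, and cover the 250 bases before an annotated start, 5′ to 3′ on the gene's strand. Kcnh6 (chr11:106007898-106008147, plus strand) encodes a voltage-gated potassium channel that repolarises mouse β cells. It is shown because a SIN3A peak covers 2 stretches, in capitals, of RE1, the element of the repressor REST, which is known to recruit SIN3A. Cacnb2 (chr2:14604056-14604305, plus strand) encodes a cytoplasmic calcium channel subunit, and a κB-type sequence in it, in capitals, lies under the p65 peaks of Bmal1-/- IL1B (3.88 tags per 10 M) and WT IL1B cells (7.66). These peaks are weak, with ranks of 15785 of 16162 and 20185 of 31389 by score. The strongest p65 peaks of Cacnb2, 15 and 46.9 tags in those groups, lay elsewhere in the gene. Kcnh4 (chr11:100759779-100760028, minus strand) encodes a voltage-gated potassium channel of the ELK group, and both SIN3A lists had a peak over its E-box, in capitals.
Kcnh6: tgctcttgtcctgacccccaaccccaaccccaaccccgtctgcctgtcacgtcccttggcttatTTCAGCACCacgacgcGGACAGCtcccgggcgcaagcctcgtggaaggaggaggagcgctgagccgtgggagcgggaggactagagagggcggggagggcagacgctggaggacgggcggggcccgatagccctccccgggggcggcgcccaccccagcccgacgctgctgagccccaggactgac
Cacnb2: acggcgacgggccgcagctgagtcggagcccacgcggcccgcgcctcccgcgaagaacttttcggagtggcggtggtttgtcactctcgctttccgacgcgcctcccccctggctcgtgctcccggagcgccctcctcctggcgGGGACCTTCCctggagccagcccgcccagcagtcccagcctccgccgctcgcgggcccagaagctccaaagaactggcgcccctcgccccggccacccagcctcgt
Kcnh4: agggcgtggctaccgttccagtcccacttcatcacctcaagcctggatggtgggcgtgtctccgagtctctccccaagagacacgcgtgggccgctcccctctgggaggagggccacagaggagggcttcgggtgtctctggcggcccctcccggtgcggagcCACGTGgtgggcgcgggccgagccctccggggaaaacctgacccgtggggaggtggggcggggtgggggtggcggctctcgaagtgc
In Kcnh6 the left RE1 stretch, TTCAGCACC, ran from -186 to -178 and the right one, GGACAGC, from -170 to -164, counted back from the start, which leaves 7 bases between them. The SIN3A peak of control siRNA cells covered both, and that of Pdx1 siRNA cells lay closer to the start and covered neither. These peaks overlapped each other, so they count as shared between the lists. Both stretches occurred together in 1 of the 129 promoter windows of channel genes, or 0.775%, against 0.0564% of all 21263 windows, searched on both strands over 250 bases before and 50 after the start. That 1 window is the one of Kcnh6, which was picked for these stretches, so the 2 shares are no test of enrichment. The right stretch was found in 14 channel windows (10.9%, against 6.88% of all windows). The κB-type sequence (GGG, 3 bases of any kind, TTCC) was in 3 channel windows (2.33% against 5.76%), the E-box CACGTG in 7 (5.43% against 7.84%), and the homeodomain letters TAATTA in 0 against 4.53% of all windows, and TAATGA in 8 (6.20% against 8.32%). A match describes letters and not a bound site.

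With IL1B, p65 had a peak within 50 kb of 59 of the 129 channel genes in Bmal1-/- cells, or 45.7% (all genes: 32.8%), and of 82 in WT cells, or 63.6% (all genes: 45.9%). Without IL1B it was 4 genes in Bmal1-/- cells (3.10%, all genes 0.672%) and 22 in WT cells (17.1%, all genes 8.99%). PDX1 peaks lay at 41 channel genes in Bmal1-/- cells with IL1B (31.8%, all genes 16.1%) and at 42 in Bmal1-/- Control cells (32.6%, all genes 16.5%). In WT cells they lay at 80 with IL1B (62.0%, all genes 41.4%) and at 77 without (59.7%, all genes 41.9%). SIN3A went the other way: 46 channel genes had a peak with Pdx1 siRNA (35.7%, all genes 50.03%) and 39 with control siRNA (30.2%, all genes 47.5%).

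Channel genes are long, with a median body of 46742 bp against 17169 bp for all genes, and longer genes collect more peaks. Weighted to the channel genes' 4 length classes, all genes had a p65 peak in 45.7% (Bmal1-/- IL1B) and 60.9% (WT IL1B) of cases, and a PDX1 peak in 28.6% (Bmal1-/- IL1B), 29.4% (Bmal1-/- Control), 58.2% (WT IL1B) and 58.5% (WT Control). The p65 and PDX1 shares of channel genes were within 4 percentage points of these values, so they stood close to those of other genes of their length. For SIN3A the same weighting gave 57.9% with Pdx1 siRNA and 54.9% with control siRNA, and the channel genes were 22.2 and 24.7 percentage points below.

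**Figure D1:**
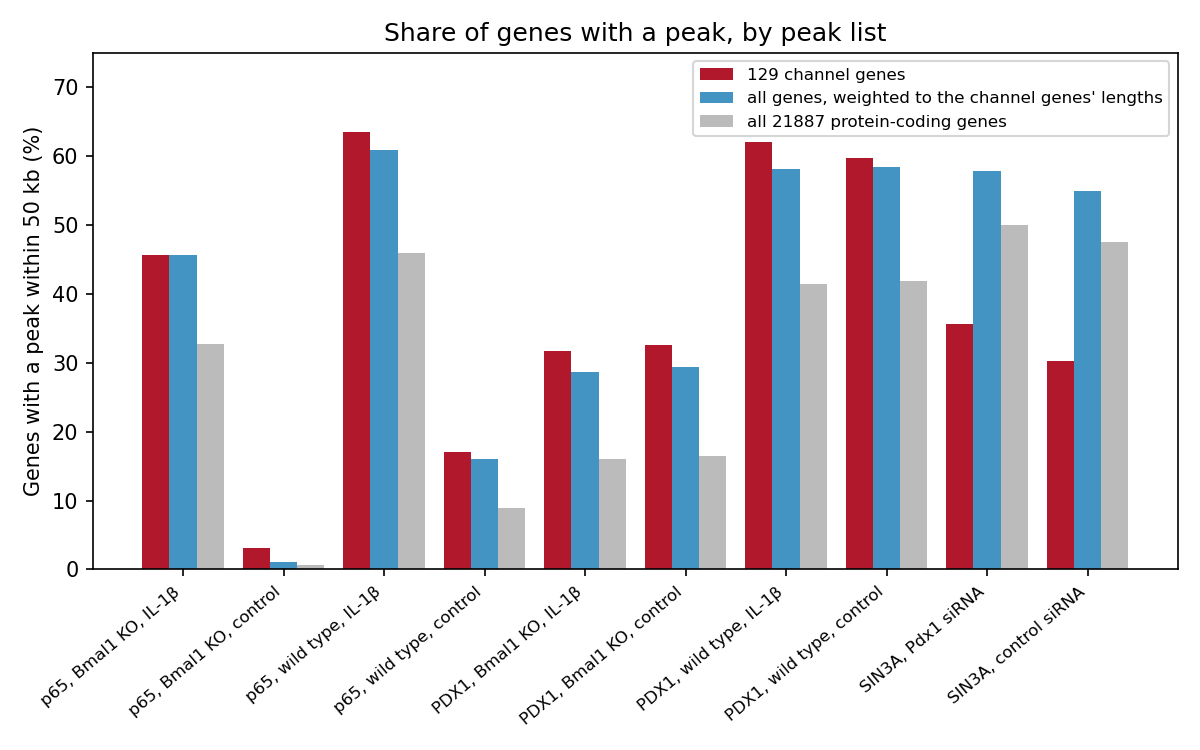
Percent of genes with at least 1 peak within 50 kb in each of the 10 lists, for the 129 channel genes (red), for all genes weighted to the channel genes' lengths (blue) and for all 21887 genes (grey). Each bar is 1 list, with no replicate error. Red and blue bars are close for p65 and PDX1, and for SIN3A the red bars (35.7% and 30.2%) are below both others.

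The SIN3A shortfall lay mainly in genes of up to 200 kb. Above that length the shares were close with control siRNA, and were 58.3% against 64.8% of all genes with Pdx1 siRNA. With control siRNA, 0 of 19 channel genes under 10 kb had a SIN3A peak against 29.1% of all genes of that length. It was 12 of 47 (25.5% against 55.0%) at 10 to 50 kb, 13 of 39 (33.3% against 64.0%) at 50 to 200 kb and 14 of 24 (58.3% against 60.3%) above. Position and signal differed as well. In the Pdx1 siRNA list 48.6% of channel gene peaks were within 1 kb of a gene end, against 65.7% of peaks at all genes, and in the control siRNA list 49.1% against 68.1%. Their median signal was 11.4 tags per 10 M with Pdx1 siRNA (all peaks 21.7) and 10.6 with control siRNA (all peaks 20), and 1 of 74 and 2 of 55 of them were in the strongest of 4 equal parts of their list. Of the 96 channel genes with a listed promoter window, 13 (13.5%) had a SIN3A peak over it with Pdx1 siRNA and 11 (11.5%) with control siRNA, against 27.6% and 27.2% of all genes. For p65 with IL1B it was 4 of the 96 in Bmal1-/- cells (4.17%, all genes 7.22%) and 8 in WT cells (8.33%, all genes 8.71%).

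**Figure D2:**
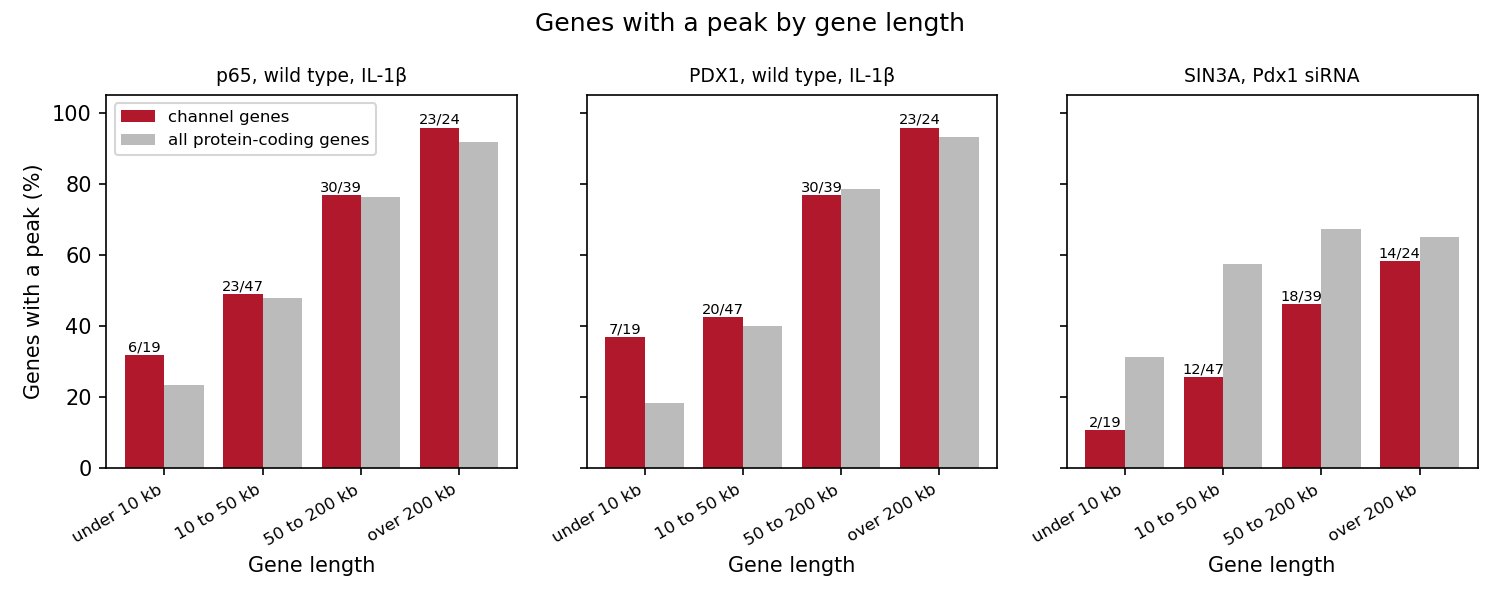
Percent of genes with a peak by gene length for 3 lists, channel genes in red with the number with a peak over the number in the class, all protein-coding genes in grey. For p65 and PDX1 the shares climb with length in both sets, and for SIN3A with Pdx1 siRNA the channel genes are lower in every class (2 of 19 under 10 kb, 14 of 24 over 200 kb).

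Among the calcium channel genes, the pore of the P/Q-type channel, Cacna1a, had one of the strongest p65 peaks of the set. That peak, inside the gene near its lower end, carried 110.5 tags per 10 M in Bmal1-/- IL1B cells and 286.4 in WT IL1B cells, and neither Control list had a peak there. A PDX1 peak overlapped it in the Bmal1-/- IL1B list (13.8 tags) and in the WT IL1B list (30.6 tags) and in no Control list, and a SIN3A peak of 8.01 tags did so with Pdx1 siRNA. A separate site below the gene, chr8:84316958-84317430 in mm10, was held by 7 lists: PDX1 had 48.7 tags in Bmal1-/- IL1B, 49.4 in Bmal1-/- Control, 132.8 in WT IL1B and 88.1 in WT Control cells. At that site p65 had 56.8 tags in Bmal1-/- IL1B cells, no peak in Bmal1-/- Control, 147.9 in WT IL1B and 17.5 in WT Control cells. So p65 and PDX1 shared the outer site with IL1B in both genotypes and without IL1B in WT cells, and their peaks at the inner site were listed with IL1B only. The PDX1 peaks at the inner site cannot be told apart from p65 DNA, since those samples are labelled for p65.

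The T-type pores open near the resting potential. At Cacna1g a site just below the gene had p65 peaks of 55.8 tags in Bmal1-/- IL1B and 116.4 in WT IL1B cells with none in either Control list, and PDX1 peaks of 21.9, 12.1, 28.8 and 9.31 tags in Bmal1-/- IL1B, Bmal1-/- Control, WT IL1B and WT Control cells. At Cacna1i 1 site (chr15:80366761-80367233) was in 8 lists, more than any other site of the channel genes, including the control siRNA SIN3A list with 7.41 tags. Its PDX1 peaks had 12.4, 10.8, 69.8 and 51.7 tags in the same order of groups. The R-type pore, Cacna1e, was the single channel gene with a p65 peak in Bmal1-/- Control cells (9.85 tags) and none in WT Control cells (all genes 0.0457%). The N-type pore, Cacna1b, had a p65 peak of 6.16 tags in WT IL1B cells only, and SIN3A peaks of 13.2 and 10.3 tags with Pdx1 and control siRNA.

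Cacna2d1, an auxiliary subunit that carries calcium channel pores to the membrane and binds gabapentin, was the single channel gene with a peak in all 10 lists. One site inside it (chr5:16024627-16025105) held p65 in all 4 p65 lists, with 111.4 tags in Bmal1-/- IL1B, 22.6 in Bmal1-/- Control, 237.2 in WT IL1B and 20.8 in WT Control cells. Of 369 channel gene sites with p65, 3 were in all 4 p65 lists, against 85 of 28410 such sites at all genes. For PDX1 neither Bmal1-/- list had a peak there, and WT IL1B (29.0 tags) and WT Control (22.4 tags) cells had one. Its relative Cacna2d3 had the most peaks of any member, 116 over the 10 lists in a body of 817833 bp, none of them SIN3A. The cytoplasmic β subunits, which bring the pore to the surface, had p65 peaks with IL1B at 4 of 4 genes in both genotypes, against 55.8% (Bmal1-/-) and 69.7% (WT) of all genes weighted to their length classes. They are long, with a median of 134908 bp. Without IL1B it was 0 of 4 in both genotypes, against 1.81% (Bmal1-/-) and 24.5% (WT) of all genes so weighted. The Cacng genes, several of which are known chiefly as glutamate receptor partners in brain, had p65 peaks at 3 of 8 in Bmal1-/- IL1B (37.5%, weighted share of all genes 41.4%) and 5 of 8 in WT IL1B cells (62.5%, weighted share 58.4%).

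**Figure D3:**
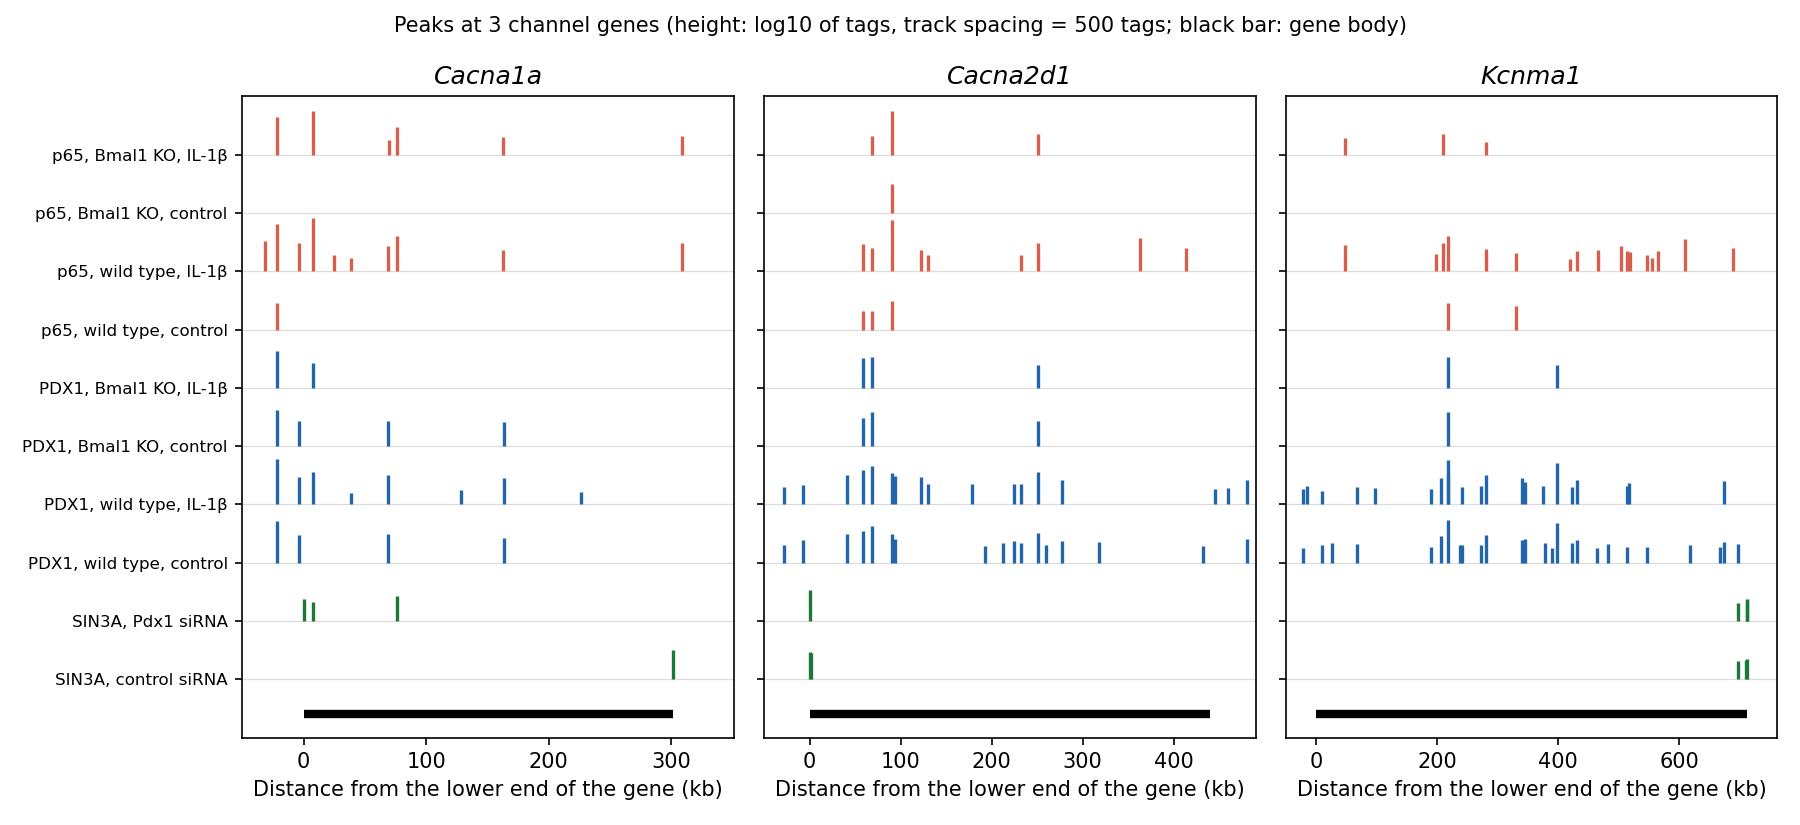
Peaks of the 10 lists along Cacna1a, Cacna2d1 and Kcnma1, in kb from the lower-coordinate end of the gene body (black bar), over the body and 50 kb to each side. Line height is the log10 of the peak's tags per 10 M (p65 red, PDX1 blue, SIN3A green). At Cacna1a and Kcnma1 the p65 lines are most numerous in WT cells with IL1B (10 and 17). The PDX1 tracks of Bmal1-/- cells hold fewer lines than those of WT cells at Kcnma1 (2 against 21 with IL1B, 1 against 26 without) and at Cacna1a with IL1B (2 against 8), but not at Cacna1a without it (4 against 4).

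The calcium-activated potassium channels carry the current that follows a burst of spikes. Kcnn1, a small-conductance channel gated by calcium through calmodulin, had the strongest p65 peak of all channel genes. It lay 169 bp beyond the upper end of the gene, the 5′ side of this minus-strand gene, at chr8:70865757-70865963, and held 472.6 tags in WT IL1B cells, rank 8 of 31389 peaks by score. In Bmal1-/- IL1B cells it held 110.3 tags (rank 50 of 16162), in WT Control cells 35.3 tags (rank 36 of 3157), and Bmal1-/- Control cells had none. Another gene, Ccdc124, lay 2366 bp away, so the assignment to Kcnn1 rests on distance alone. No PDX1 list had a peak at Kcnn1, and SIN3A peaks of 17.7 and 17.1 tags with Pdx1 and control siRNA did not overlap that p65 peak. The control siRNA peak of 17.1 tags (chr8:70865429-70865653) nevertheless lay beside it, inside the gene and 150 bp from the same end. The Pdx1 siRNA peak lay 8840 bp from that end, where the control siRNA list had another, overlapping peak of 16.7 tags.

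Kcnma1, the pore of the large-conductance channel, had its strongest site under PDX1. That site (chr14:23511031-23511538) held PDX1 peaks of 26.3 tags in Bmal1-/- IL1B, 37.5 in Bmal1-/- Control, 111.6 in WT IL1B and 98.7 in WT Control cells. There p65 had 44.3 tags in WT IL1B and 17.1 in WT Control cells, and no peak in either Bmal1-/- list. Kcnn4, the intermediate-conductance channel, had p65 peaks of 11.8 tags in Bmal1-/- IL1B and 26.2 in WT IL1B cells and no peak in the other 8 lists. Kcnn3 had p65 with IL1B (13.8 in Bmal1-/- and 50.4 in WT cells) and PDX1 peaks in WT cells alone (18.3 with IL1B, 11.6 without).

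Of the 40 voltage-gated potassium channel pores, 35 had a peak in at least 1 list (87.5%, against 81.2% of all genes weighted to their length classes). p65 peaks lay at 16 of them in Bmal1-/- IL1B (40%, weighted share 45.3%), 1 in Bmal1-/- Control (2.5%, weighted 1.21%), 24 in WT IL1B (60%, weighted 59.4%) and 4 in WT Control cells (10%, weighted 16.8%). These p65 shares were close to or below those of other genes of their length, apart from the single gene in Bmal1-/- Control cells. At Kcnb2, a delayed rectifier pore, PDX1 had 26.8, 33.4, 62.8 and 59.0 tags in Bmal1-/- IL1B, Bmal1-/- Control, WT IL1B and WT Control cells, and p65 no more than 12.7 tags. SIN3A peaks of Kcnb2 had 15.4 and 9.98 tags with Pdx1 and control siRNA.

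The strongest p65 peaks of the pores were inside Kcnh5, an EAG-type channel, with 87.2 tags in Bmal1-/- IL1B and 158.2 in WT IL1B cells, and at Kcnq3, a subunit of the neuronal M current, with a highest peak of 46.1 and 155.8 tags in those groups. Neither had a p65 peak in a Control list. Kcnh1, another EAG-type channel, had a p65 peak without IL1B in both genotypes (18.1 tags in Bmal1-/- Control, 24.5 in WT Control cells). At that site the lists with IL1B had 6.53 tags in Bmal1-/- and 14 in WT cells. The highest p65 peaks of Kcnh1 with IL1B, 42.5 tags in Bmal1-/- and 45.6 in WT cells, lay at another site. Kcng3, a silent subunit that alters Kcnb channels, had p65 over its promoter window with 13.6 tags in Bmal1-/- IL1B and 43.7 in WT IL1B cells. The promoter of Kcnh4 shown above had p65 peaks of 19.2 and 49.3 tags in the same groups, at its upstream edge.

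Kcnh2, the mouse counterpart of hERG, which repolarises heart and β cells, had the highest SIN3A peak of all members, 40.9 tags with Pdx1 siRNA and 42.8 with control siRNA. Kcnh4 had 28.3 and 37.0 tags and Kcnh6 25.7 and 16.4. Outside the potassium channel pores the highest was Cacna2d1 with Pdx1 siRNA (27.2 tags, against 19.3 with control siRNA) and Cacna1a with control siRNA (23.5 tags). Kcnh4 had no PDX1 peak in any list, while Kcnh6 had PDX1 peaks of 18.3 tags in Bmal1-/- Control, 34.8 in WT IL1B and 27.1 in WT Control cells. Kcnh6 had no p65 peak in any list.

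The 16 auxiliary potassium channel genes had p65 peaks at 9 in Bmal1-/- IL1B (56.2%, against 43.1% of all genes weighted to their length classes), 0 in Bmal1-/- Control (weighted 1.15%), 10 in WT IL1B (62.5%, weighted 56.4%) and 3 in WT Control cells (18.8%, weighted 16.5%). PDX1 peaks lay at 6 in Bmal1-/- IL1B (37.5%, weighted 28.8%), 7 in Bmal1-/- Control (43.8%, weighted 29.4%), 12 in WT IL1B (75%, weighted 53.6%) and 11 in WT Control cells (68.8%, weighted 53.9%). Kcnip4, a calcium-binding partner of Kcnd pores, held the strongest PDX1 site of all channel genes (chr5:48781077-48781549), with 67.3 tags in Bmal1-/- IL1B, 85.7 in Bmal1-/- Control, 172 in WT IL1B and 131.3 in WT Control cells. It is also the longest member, at 1135620 bp. Kcnip1 had 86 peaks over 9 lists, and Kcnmb2, an inactivating partner of Kcnma1, had PDX1 peaks of up to 36.5, 50.4, 71.2 and 68.3 tags in the same order of groups. Kcnip3, a partner of Kcnd pores also known as the repressor DREAM, was the single member with a PDX1 peak over a promoter window, with 5.54 tags in Bmal1-/- Control (all genes 0.372%) and 4.86 in WT IL1B cells (all genes 2.08%).

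Inward rectifiers and tandem-pore channels hold the resting potential. Kcnj6, a G-protein-gated pore, had PDX1 peaks of 26.0, 34.5, 59.6 and 43.9 tags in Bmal1-/- IL1B, Bmal1-/- Control, WT IL1B and WT Control cells. Kcnj13 had PDX1 alone, with 22.8, 26.7, 57.8 and 44.9 tags in those groups. Kcnk16, the leak channel known from islets, had p65 of 15.2 tags in Bmal1-/- IL1B and 21.9 in WT IL1B cells, and PDX1 of 10.2 and 9.64 tags in WT IL1B and WT Control cells only. The highest p65 peak of the tandem-pore genes was at Kcnk10, with 29.0 tags in Bmal1-/- IL1B and 69.1 in WT IL1B cells.

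Sodium channels start the action potential. Across their 10 pores the highest value in any list was 26.9 tags, p65 at Scn3a in WT IL1B cells, a pore known to carry sodium current in mouse β cells. Scn3a had 16.4 tags in Bmal1-/- IL1B cells and no p65 peak without IL1B. Scn9a, the other pore described in mouse β cells, had p65 only in WT IL1B cells (8.22 tags) and PDX1 peaks of 8.64 tags in Bmal1-/- Control, 15.1 in WT IL1B and 11 in WT Control cells.

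**Figure D4:**
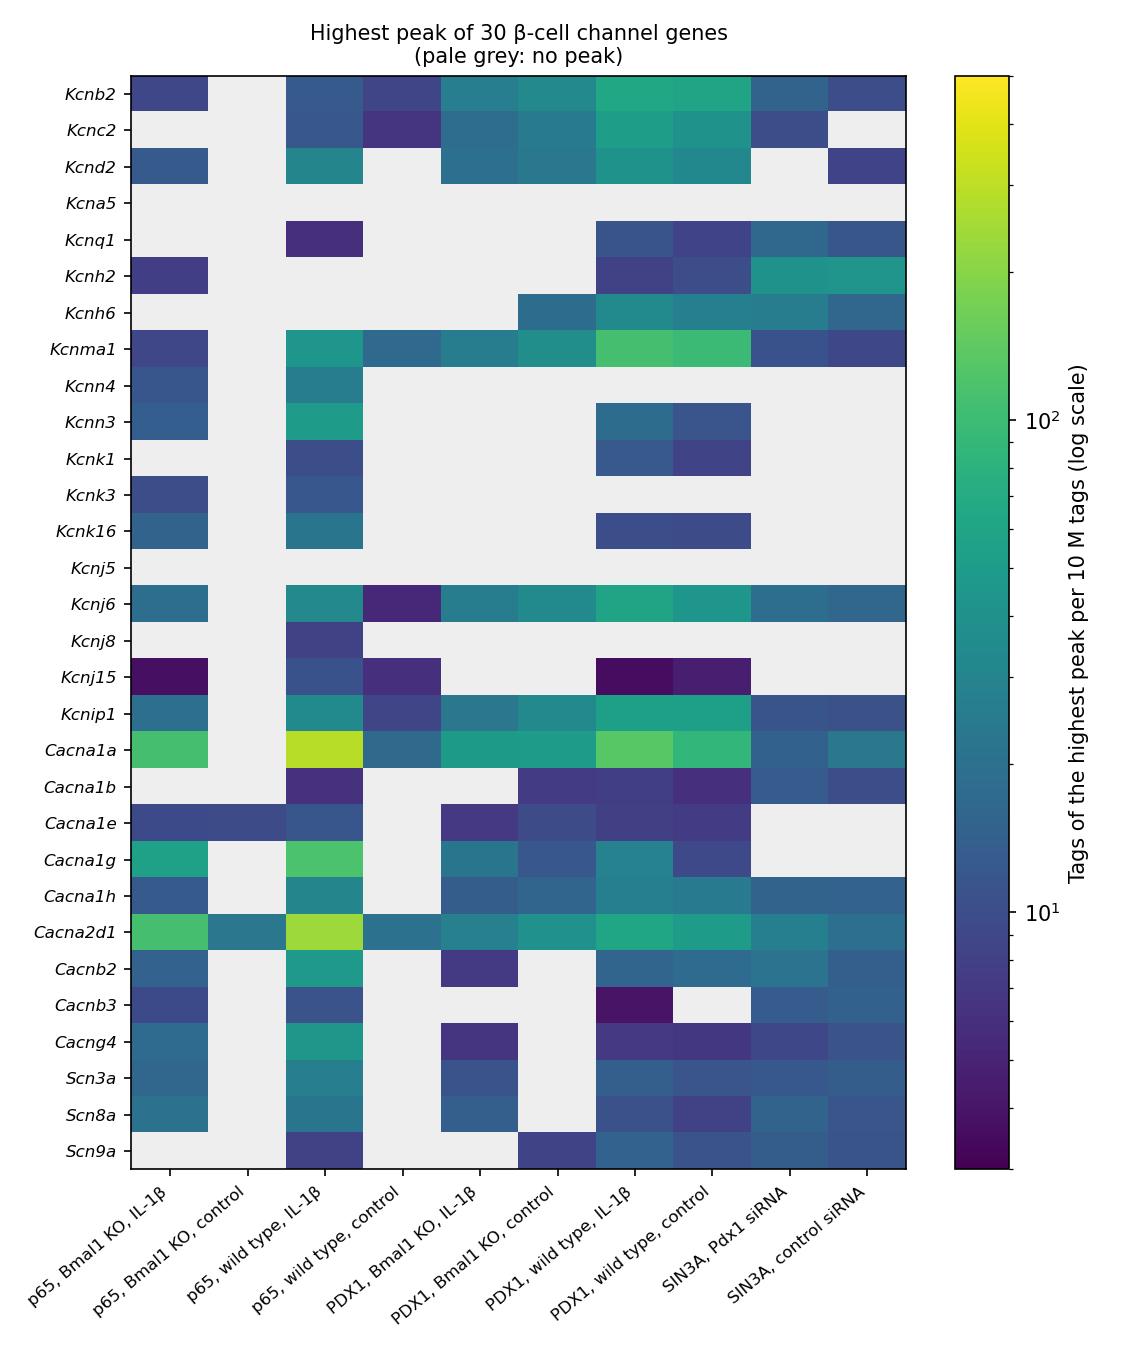
Tags per 10 M of the highest peak (log colour scale, pale grey for no peak) for 30 channel genes with a known role in β-cell excitability, in rows, and the 10 lists, in columns. Cacna1a and Cacna2d1 have the brightest p65 cells (286.4 and 237.2 tags in WT IL1B), Kcnma1 is among the brightest for PDX1 in WT cells, and Kcna5 and Kcnj5 are empty.

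Pooled over members, few p65 peaks of the IL1B lists were also in the Control lists. The Control lists were much shorter and could match only few of them. In WT cells 20 of 341 IL1B peaks overlapped a Control peak (5.87%, all peaks 5.07%), while 20 of 30 Control peaks overlapped an IL1B peak, or 66.7% with a Wilson 95% interval of 48.8% to 80.8% (all peaks 50.4%). By gene, 22 members had p65 with and without IL1B (17.1%, all genes 8.02%), 60 with IL1B only (46.5%, all genes 37.9%) and 0 without it only (all genes 0.964%). Limited to the 3157 highest-scored peaks, the length of the Control list, WT IL1B p65 was at 19 members, against 22 in WT Control cells. Of its 31 channel gene peaks 19.4% then overlapped a Control peak. In Bmal1-/- cells the 4 genes with a Control peak, Cacna1e, Cacna2d1, Cacng8 and Kcnh1, all had one with IL1B (3.10%, all genes 0.562%), 55 had one with IL1B only (42.6%, all genes 32.2%) and 0 without it only (all genes 0.110%). The intervals cover counting error alone and not the spread between replicates. The shares of all genes beside these counts by gene, and beside those for PDX1, genotypes and SIN3A below, are not weighted to gene length. So weighted, all genes had p65 in 16.0% of cases in WT Control and 1.11% in Bmal1-/- Control cells.

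PDX1 peaks were mostly shared between WT IL1B and WT Control cells: 243 of 401 IL1B peaks were in the Control list (60.6%, all peaks 61.8%). By gene, 70 members had PDX1 in both lists (54.3%, all genes 34.7%), 10 in the WT IL1B list only (7.75%, all genes 6.72%), among them Cacnb1 (22.8 tags), Kcnip2 and Cacnb3, and 7 in the WT Control list only (5.43%, all genes 7.22%), among them Kcna2 and Scn1a. In Bmal1-/- cells 45 of 81 IL1B peaks were in the Control list (55.6%, all peaks 60.6%). By gene, 32 members had PDX1 in both Bmal1-/- lists (24.8%, all genes 11.8%), 9 with IL1B only (6.98%, all genes 4.24%), such as Cacnb2 and Scn8a, and 10 without it only (7.75%, all genes 4.61%), such as Kcnh6 and Cacna1b. Of WT IL1B peaks that the Control list lacked, 40 of 158 overlapped a p65 peak of WT IL1B cells (25.3%, all such peaks 22.5%), against 8 of 135 Control peaks that the IL1B list lacked (5.93%, all such peaks 4.43%). In Bmal1-/- cells the shares at p65 peaks were 15 of 36 for peaks with IL1B only (41.7%, all such peaks 39.5%) and 5 of 34 for Control only (14.7%, all such peaks 10.3%). Since the antibody label of these IL1B samples names p65, PDX1 peaks seen with IL1B only cannot be told apart here from p65 DNA.

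Between genotypes, most peaks of the shorter Bmal1-/- lists were also in the longer WT lists. With IL1B 141 of 160 Bmal1-/- p65 peaks were in the WT list (88.1%, all peaks 79.1%), and 141 of 341 WT peaks were in the Bmal1-/- list (41.3%, interval 36.2% to 46.6%, all peaks 40.7%). For PDX1 with IL1B, 73 of 81 Bmal1-/- peaks were in the WT list (90.1%, all peaks 89.9%) and 73 of 401 WT peaks in the Bmal1-/- list (18.2%, all peaks 18.7%). For PDX1 without IL1B it was 69 of 79 (87.3%, all peaks 91.6%) and 69 of 378 (18.3%, all peaks 19.1%). With lists of equal length the share of Bmal1-/- peaks in the WT list was 72.5% for p65 with IL1B, 60.5% for PDX1 with IL1B and 57.0% for PDX1 without it. By gene, p65 with IL1B was in both lists at 57 members (44.2%, all genes 29.97%), in Bmal1-/- cells only at 2, Cacng7 and Kcnh2 (1.55%, all genes 2.79%), and in WT cells only at 25 (19.4%, all genes 16.0%). Without IL1B p65 was in both lists at 3 members (2.33%, all genes 0.626%) and in WT cells only at 19 (14.7%, all genes 8.36%). PDX1 with IL1B was in both lists at 40 members (31.0%, all genes 15.6%), in Bmal1-/- cells only at 1, Kcnd1 (all genes 0.512%), and in WT cells only at 40 (all genes 25.8%). PDX1 without IL1B was in both lists at 42 members (32.6%, all genes 16.0%), in Bmal1-/- cells only at 0 (all genes 0.457%) and in WT cells only at 35 (27.1%, all genes 25.9%). These shares of all genes are not weighted to length. Weighted, all genes had PDX1 in 28.6% (Bmal1-/- IL1B) and 29.4% (Bmal1-/- Control) of cases, against 31.8% and 32.6% of members in those lists.

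What was missing in Bmal1-/- cells followed peak strength, in channel genes as elsewhere. Of WT IL1B p65 peaks in the strongest of 4 equal parts of the list 88.4% were found in Bmal1-/- cells (all peaks 87.8%), and in the weakest 8.51% (all peaks 6.50%). For PDX1 with IL1B the shares were 54.9% and 0% (all peaks 53.0% and 1.59%). Counts of genes changed with list length: limited to equally long lists by score, p65 with IL1B was at 59 members in Bmal1-/- and 55 in WT cells. PDX1 was then at 41 members in Bmal1-/- and 31 in WT cells with IL1B, and at 42 in Bmal1-/- and 30 in WT cells without it. The full lists had more members in WT cells in each of these comparisons, so the direction turned, and the cause was not tested. The called peak width and the tag threshold also differed between the lists, at 419 bp and 32 tags in Bmal1-/- IL1B PDX1 against 227 bp and 22 tags in WT IL1B PDX1, and their part in the result was not tested.

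**Figure D5:**
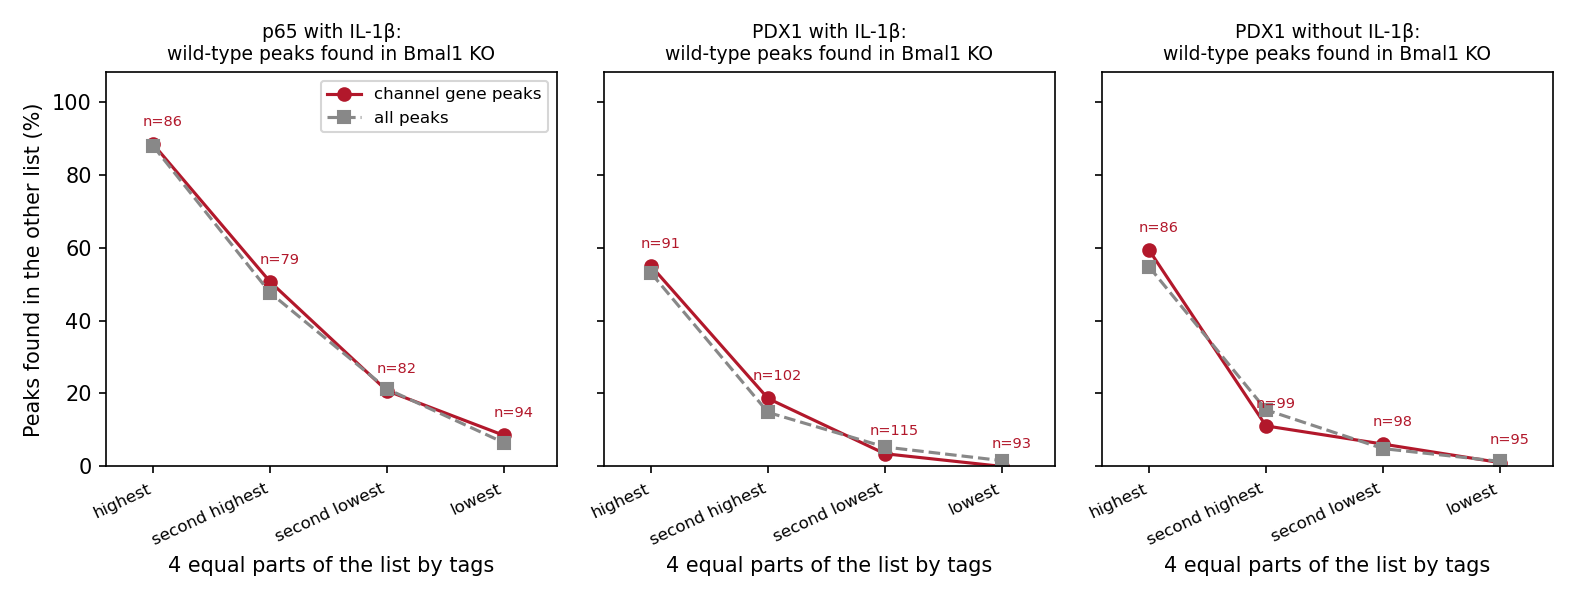
Percent of WT peaks also found in the Bmal1-/- list of the same factor and condition, by 4 equal parts of the WT list from the highest to the lowest tags, for channel gene peaks (red, with their number) and all peaks (grey). Both curves fall with peak strength and run close together, from 88.4% to 8.51% for p65 with IL1B.

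Of the SIN3A peaks of channel genes, 33 of 74 Pdx1 siRNA peaks were in the control list (44.6%, interval 33.8% to 55.9%, all peaks 65.7%), and 33 of 55 control peaks in the Pdx1 siRNA list (60.0%, interval 46.8% to 71.9%, all peaks 73.5%). Of these peaks 41 of 74 with Pdx1 siRNA and 35 of 55 with control siRNA were in the lowest of 4 equal parts of their list by tags. In that part the shares found in the other list were 29.3% for Pdx1 siRNA peaks (all peaks 30.1%) and 51.4% for control siRNA peaks (all peaks 44.8%). By gene, 33 members had SIN3A in both lists (25.6%, all genes 44.2%), 13 with Pdx1 siRNA only (10.1%, all genes 5.79%), such as Kcnc2, Kcng3 and Kcnq3, and 6 with control siRNA only (4.65%, all genes 3.26%), such as Cacna1i and Kcnd2. The Pdx1 siRNA list was also the longer, with 14653 peaks against 13109, and limited to the 13109 highest-scored peaks it had SIN3A at 37 members, against 39 with control siRNA.

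The shares of p65 peaks that met PDX1 were close to those of all peaks. PDX1 overlapped 36 of 160 p65 peaks in Bmal1-/- IL1B cells (22.5%, all peaks 21.9%), 121 of 341 in WT IL1B cells (35.5%, all peaks 33.8%) and 16 of 30 in WT Control cells (53.3%, all peaks 55.4%). Among the genes of those 121 peaks were Cacna1a, Cacna1g, Kcnip4 and Kcnma1. Both overlaps with IL1B are open to doubt, because the PDX1 samples involved are labelled for p65. Of WT IL1B PDX1 peaks at p65 peaks, 81 were also in the WT Control PDX1 list and 40 were not. In Bmal1-/- IL1B cells 21 were also in the Control PDX1 list and 15 were not. Those absent from the Control lists cannot be told apart from p65 DNA. SIN3A met PDX1 of WT Control cells in 3 of 74 peaks with Pdx1 siRNA (4.05%, all peaks 7.79%), at Cacng4, Kcnh1 and Kcnh6, and in 3 of 55 with control siRNA (5.45%, all peaks 6.84%), at Cacna1h, Cacna1i and Kcnip1. When overlapping peaks of all lists were merged, the channel genes had 847 sites: 401 held PDX1 alone (47.3%, all sites 39.0%), 213 p65 alone (25.1%, all sites 23.1%), 137 p65 and PDX1 (16.2%, all sites 12.8%) and 76 SIN3A alone (8.97%, all sites 19.02%). Peaks of all 3 factors fell in 8 merged sites (0.945%, all sites 1.64%), at Cacna1a, Cacna1h, Cacna1i, Cacng4, Kcnh1, Kcnip1, Kcnip3 and Scn2a. Merging joins peaks of different lists, so the factors need not overlap each other or come from the same condition. The doubt about the label also holds for merged sites with PDX1 from IL1B lists only, such as that of Cacna1a. At the sites of Kcnip3 and Scn2a no SIN3A peak overlapped a p65 peak. At those of Cacna1a, Cacng4, Kcnh1 and Kcnip3 SIN3A came from the Pdx1 siRNA list only.

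Of the 129 genes 104 had a peak in at least 1 list (80.6%, all genes 72.3%, all genes weighted to their length classes 82.8%) and 25 had none. The 25 included Kcna1, Kcna5 and Kcna6, pores of delayed rectifiers, Kcnj2, Kcnj5 and Kcnj9, inward rectifiers, Kcnk4 to Kcnk7, tandem-pore channels, the sensory neuron sodium pores Scn10a and Scn11a, and the retinal calcium pore Cacna1f. Kcnab2, a cytoplasmic partner of Kcna pores, was also counted as having none, although SIN3A peaks of 34.3 and 34.8 tags with Pdx1 and control siRNA covered its promoter window, because these lay inside the neighbouring gene Nphp4. Having no peak says only that none passed the authors' threshold within 50 kb and closer to that gene than to another.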

How the data were processed

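The series holds 34 samples, 28 immunoprecipitated and 6 inputs, and the report uses 10 peak lists, 1 per group, with no value per replicate. The lists were made by the authors with HOMER findPeaks from 1 tag collection and 1 input, per the file headers, with an FDR of 0.001 and a minimum of 4-fold over both input and the local 10 kb. Whether replicates were pooled is not given in the sources used here. Bowtie2 and HOMER on mm10 are among the tools of the submitters' processing notes. Peak signal is given as deposited, in tags per 10 M as scaled by the authors. The deposited score is a position-adjusted tag count, and the deposited fold is a ratio of immunoprecipitated to input tags. They describe and rank peaks within a list. Values of different lists stand side by side as description, and no change in signal is read from them.

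Each peak was assigned by its centre to the closest gene body among 21887 protein-coding genes (RefSeq, GRCm38.p6) within 50 kb, and where bodies overlap to each of them. Shares of all genes were also weighted to 4 length classes. Peaks of 2 lists were counted as shared at 1 bp of overlap, with Wilson 95% intervals that cover counting error only. Promoter windows of 96 of the 129 members (129 windows) came from RefSeq. Python 3.11.15, pandas 2.3.3, numpy 2.4.6 and scipy 1.17.1 were used, and assignment and overlap were tested on simulated peaks. Named are 30 genes listed for a role in β-cell excitability (Kcnk17, also listed, is not in the gene table, and a few items are not reported here), the genes with the strongest peaks of each comparison and those with the most peaks. Other genes were chosen after their values were seen. The members and lists were chosen with earlier results of these data known, and the motifs and the tighter overlaps for co-occupancy after the data were seen.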

Additional observations from a re-analysis of the deposited data

How the results depend on the processing

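No paired analysis was possible because the lists hold no replicate values, so leaving out replicates and a replicate block were not run, nor was the nearest transcription start, since strand was at hand for only part of the genes. Counting peaks within 10 kb in place of 50 kb gave 55, 4, 75 and 21 channel genes with p65 in Bmal1-/- IL1B, Bmal1-/- Control, WT IL1B and WT Control cells, 39, 39, 74 and 68 with PDX1 in the same groups, and 45 and 37 with SIN3A with Pdx1 and control siRNA. Each is within 1.5 times the count at 50 kb.

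Requiring at least 8-fold over input lowered the peaks per Mb at channel genes to 4.68, 0.0472, 9.40 and 0.378 for p65 in Bmal1-/- IL1B, Bmal1-/- Control, WT IL1B and WT Control cells, to 1.51, 1.04, 9.78 and 10.96 for PDX1 in the same groups, and to 2.13 and 1.56 for SIN3A with Pdx1 and control siRNA. As reported these were 7.56, 0.189, 16.1 and 1.42, then 3.83, 3.73, 18.9 and 17.9, then 3.50 and 2.60. The genes with a peak became 1 (p65, Bmal1-/- Control), 6 (p65, WT Control), 21 (PDX1, Bmal1-/- IL1B) and 18 (PDX1, Bmal1-/- Control). The SIN3A share stayed below that of all genes of the same lengths, by 22.4 and 25.6 percentage points within 10 kb and by 19.2 and 20.1 at 8-fold, with Pdx1 and control siRNA.

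Cut to the length of the shorter list, IL1B p65 gave 4 genes against 4 in Control in Bmal1-/- cells and 19 against 22 in WT cells. Bmal1-/- IL1B p65 had 59 against 55 in WT IL1B, Bmal1-/- Control p65 had 4 against 3 in WT Control, and Bmal1-/- PDX1 had 41 with IL1B and 42 without, against 31 and 30 in WT cells, so the direction between genotypes turned in all 4. It turned for SIN3A too, with 37 genes with Pdx1 siRNA against 39 with control siRNA. PDX1 had 80 with IL1B against 76 in WT Control and 41 against 40 in Bmal1-/- Control cells, where the reported counts were 41 and 42.

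Shares of shared peaks changed with list length and peak width. With lists of equal length, 60.8% of WT Control and 62.8% of WT IL1B PDX1 peaks were in the Bmal1-/- list, and 69.5% of WT IL1B and 66.7% of WT Control p65 peaks. The share for WT Control p65 rests on 3 peaks. Of Bmal1-/- peaks 57.0% (PDX1 Control), 60.5% (PDX1 IL1B) and 72.5% (p65 IL1B) were then in the WT list. Of WT Control p65 peaks 20% were then in the IL1B list, and 25% of the Bmal1-/- ones. At 8-fold in both lists these last 2 were 37.5% (of 8 peaks) and 0% (of 1 peak), and WT Control p65 in Bmal1-/- was 0% (of 8 peaks). WT PDX1 in Bmal1-/- was 9.48% (Control) and 13.04% (IL1B), WT Control PDX1 in IL1B 43.1%, and control siRNA SIN3A in Pdx1 siRNA 36.4%. A reciprocal overlap of 50% gave 0% for both Control comparisons with Bmal1-/- lists and for Bmal1-/- Control p65 in IL1B, which the wider Bmal1-/- Control peaks, at 473 and 479 bp, cannot reach against peaks of 207 or 231 bp. It gave 57.7% for WT Control PDX1 in IL1B, 43.6% for SIN3A and 27.6% for p65 at PDX1 in WT IL1B cells. Centres within 100 bp gave 57.4%, 41.8% and 26.7% for these, 45.6% for Bmal1-/- Control PDX1 in IL1B, 16.25% for p65 at PDX1 in Bmal1-/- IL1B and 0% in Bmal1-/- Control cells. Both gave 1.82% for control siRNA SIN3A at PDX1. The cause of the other moves was not tested. The number of peaks limits the precision: 4 peaks at channel genes in the Bmal1-/- Control p65 list carry every statement on it.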
